A study of Mus musculus with 10 samples.

Results

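Mouse embryonic stem cells that had left a long culture in 2i for serum and then returned to 2i (second 2i) were compared with cells kept in 2i throughout (long 2i). The libraries were chosen by their culture labels alone, 2 of second 2i and 2 of long 2i, which makes 4 of the 10 RNA-seq libraries of the series. Long 2i cells had grown for more than 13 passages in 2i. Second 2i cells had grown for 13 passages in 2i, then 6 in serum, then 4 to 5 in 2i, so both groups were lysed in the same medium. 2i is a GSK3 inhibitor at 3 µM together with the ERK pathway inhibitor PD at 1 µM, and every culture of the series also received leukaemia inhibitory factor (LIF). All cultures used cells derived from the blastocyst's inner cell mass with a reporter for the Wnt/β-catenin pathway, grew on gelatin and were generally split every 48 h. First 2i (serum cells after 5 to 6 passages in 2i), the original serum culture and the serum return (long 2i cells after 6 passages in serum) are given as reference levels. The strain, the clone and the construction of the reporter could not be told from the sources used.

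The question of this contrast was which of the changes of long 2i were gone after a period in serum. Second 2i differed from long 2i both by that period and by the shorter current stay in 2i, and these cannot be told apart. First 2i had nearly the same current stay as second 2i, so its levels stand beside the results. That comparison uses the same second 2i libraries as the main one, and its values are set side by side with no count of shared genes. Whether the sequenced serum return cells gave rise to second 2i is not in the labels. Nor do the labels say that the 2 libraries of a group came from separate cultures, so the p-values rest on a spread between libraries that may be only technical.

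Inhibition of GSK3 stabilises β-catenin, and inhibition of the ERK cascade removes the main differentiation signal of LIF-dependent stem cells. Together they hold cells in the naive, ground state of pluripotency. Serum brings back growth factor signals and a mixture of cell states, and 2i is known to lower DNA methylation as long as it is applied. Nodal, a ligand of the TGF-β family made by stem cells themselves, feeds back on itself through its secreted antagonists Lefty1 and Lefty2.

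Counts assigned to genes totalled 16809070 and 18780882 in long 2i and 18412529 and 19017245 in second 2i, and 16809070 to 27766338 over all 10 libraries. Levels are in CPM (counts normalised for depth by edgeR, with TMM-adjusted library sizes of the tested genes), a pair of values stands in the order library 1 and library 2, and means carry the SD with n = 2. On the first principal component of log2 CPM (65.8% of the variance) long 2i scored 63.8 and 63.1, second 2i 43.9 and 43.3 and first 2i 54.5 and 54.1. Serum scored -81.6 and -84.2 on it and the serum return -77.3 and -79.6, so second 2i was the 2i culture nearest to serum there. On the second component (18.7%) long 2i scored -61.0 and -62.1, second 2i 29.1 and 28.7 and first 2i 38.2 and 39.6. The libraries of a group differed by more than counting noise (chi-square per degree of freedom without the 50 most different genes 3.65 in long 2i and 2.90 in second 2i), so none was treated as a library deposited 2 times. Repeat preparations of 1 culture could differ as much. The stem cell label held: all 8 stem cell markers were detected in each library, at a summed 4470 and 4549 CPM in long 2i and 6259 and 6456 CPM in second 2i. Of 12 fibroblast and feeder markers Twist2 and Fap were at 0 in all 4 libraries, and the summed level was 7.68 and 7.81 CPM in long 2i and 19.3 and 18.6 CPM in second 2i. The 14 blood and endothelium markers summed to 83.8 and 91.0 CPM and to 99.95 and 103.96 CPM, with the haemoglobin genes Hbb-b1 and Hba-a1 at 0 throughout, and the 6 endoderm markers to 15.2 and 18.7 CPM and to 4.47 and 4.64 CPM. In bulk RNA a change in the number of cells that express a gene and a change in its RNA per cell cannot be told apart.

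Of 14220 tested genes 8024 were called at an adjusted p under 0.05 in the edgeR quasi-likelihood test (56.4%), 3991 higher (28.1%) and 4033 lower (28.4%) in second 2i. Calls of at least 2-fold numbered 2062 (14.5%), of which 1263 were higher (8.88%) and 799 lower (5.62%). The median log2 fold change over all tested genes was -0.01. Second and long 2i did not overlap in 10926 of the 14220 tested genes. Against first 2i 5357 genes were called (37.7%), 2570 higher (18.1%) and 2787 lower (19.6%) in second 2i, and 943 by at least 2-fold (6.63%). Shares of called list members between second and long 2i are therefore read against 28.1% for higher and 28.4% for lower. Those between second and first 2i are read against 18.1% and 19.6%. Among the genes at the ends of the contrast were Fosb, Lefty1, Lefty2, Fos, Egr1, Dio3, Rcn3, Adrbk2 and Dkk3 on the higher side. On the lower side they included Xlr5b, Cyp1a1, Xlr5a, Efhc2, Xlr4c, Ahrr, Cdkl4, Gad1 and Ano3.

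**Figure D1:**
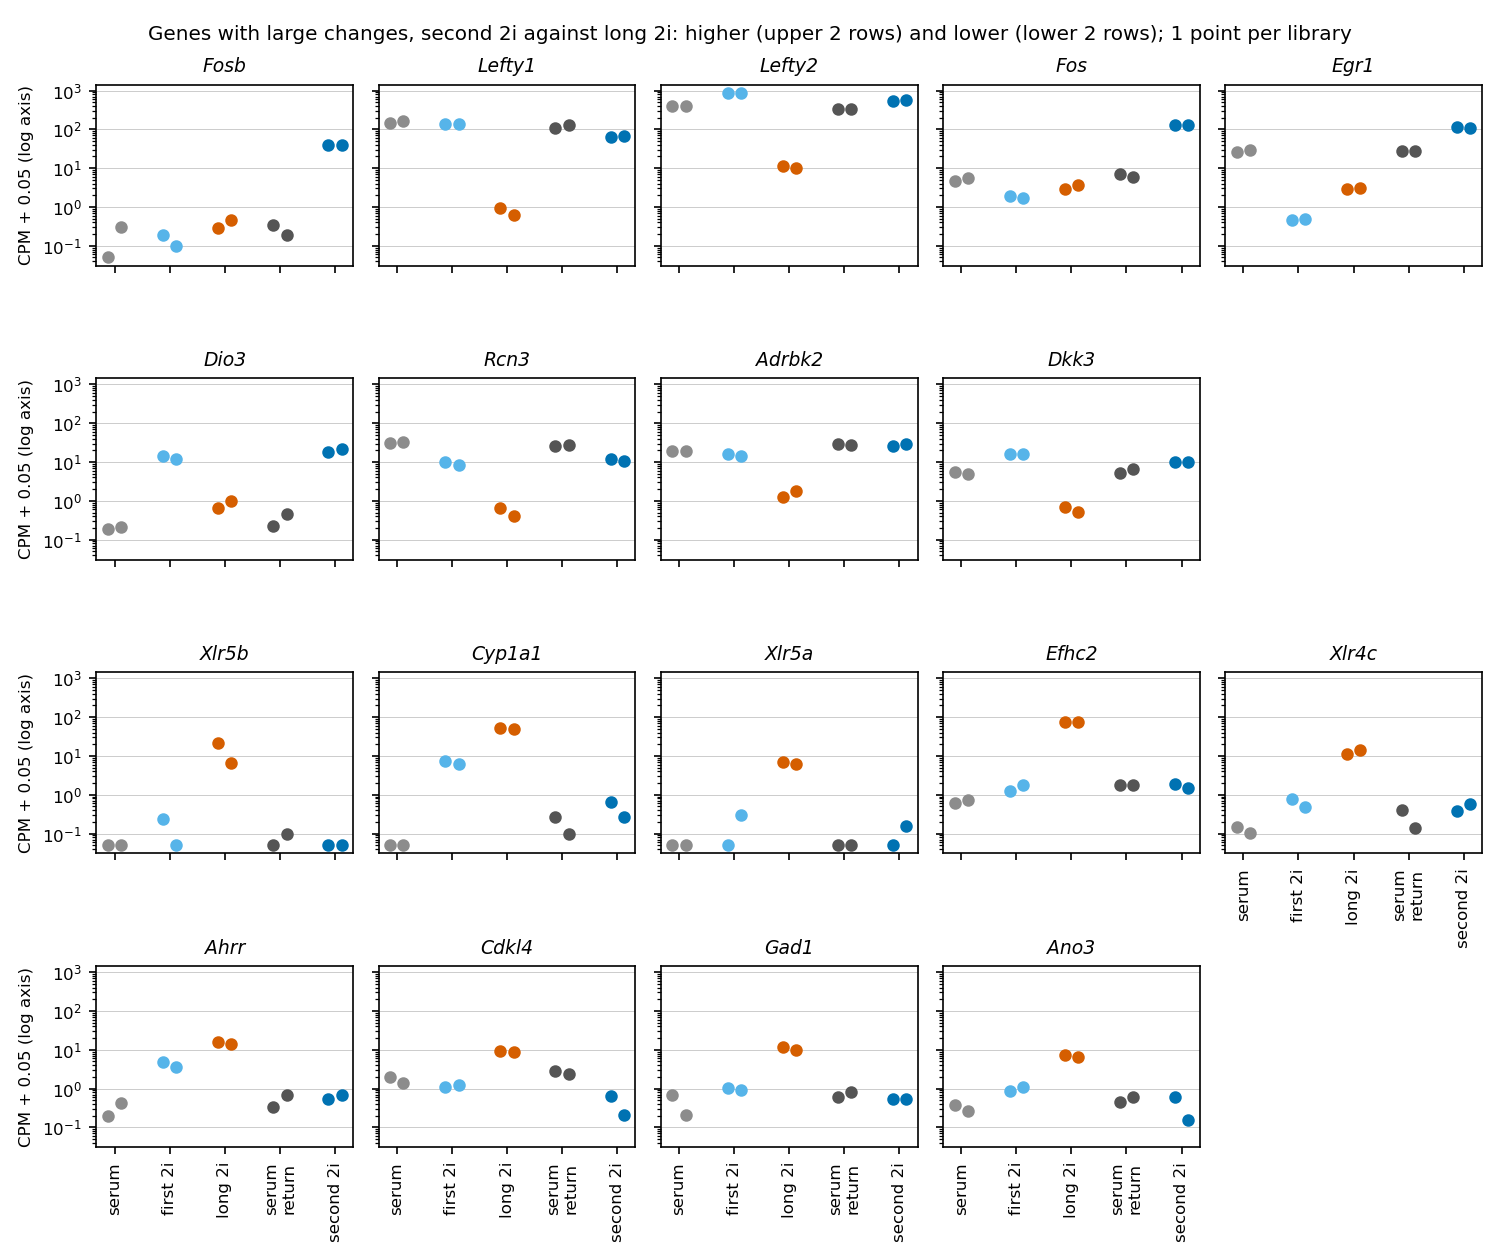
Levels of genes among those with the largest higher (upper 2 rows) and lower (lower 2 rows) fold changes in second 2i, as CPM + 0.05 on a log axis, with 1 point per library and the 5 cultures along the x axis. Genes were chosen with no overlap between long and second 2i, so their separation in every panel follows from the choice. For Fosb, Fos and Egr1 the second 2i libraries also lie above all others, whereas Lefty1 and Lefty2 are low only in long 2i among the 5 cultures.

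The Nodal antagonists Lefty1 and Lefty2 had the largest differences of the tested Nodal pathway genes. Lefty1 read 0.887 and 0.581 CPM in long 2i and 63.5 and 68.97 CPM in second 2i. It was thus 90.6-fold higher (log2 fold change 6.50, SE 0.16, edgeR adjusted p = 6.43e-17), with no overlap between the groups. Lefty2 read 10.99 and 10.03 CPM against 529 and 562 CPM, a 52.0-fold difference (edgeR adjusted p = 5.22e-23). Neither gene reached the level of first 2i, which was 139 ± 1.08 CPM for Lefty1 and 868 ± 12.4 CPM for Lefty2. Second 2i was lower than first 2i by a log2 fold change of -1.07 (SE 0.07, edgeR adjusted p = 1.71e-09) for Lefty1 and -0.67 (SE 0.05, edgeR adjusted p = 9.77e-10) for Lefty2. The serum cultures held 156 ± 11.7 and 119.6 ± 12.7 CPM of Lefty1, so that of the 5 cultures long 2i alone was below 10 CPM.

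The rest of the pathway moved far less than its antagonists. Of 21 listed Nodal pathway genes 20 were in the files and 17 passed the filter on low counts. In second 2i 9 of these 17 were higher (52.9%) and 4 lower (23.5%), with a median log2 fold change of 0.24. Skil, a repressor of SMAD signalling that the pathway itself induces, read 18.7 and 16.2 CPM in long 2i and 57.8 and 53.2 CPM in second 2i (3.19-fold, edgeR adjusted p = 3.06e-13). Its first 2i level was 60.8 ± 0.851 CPM, from which second 2i was not called different (log2 fold change -0.13, SE 0.07, edgeR adjusted p = 0.127). Smad7, an inhibitory SMAD, read 68.6 and 77.2 CPM against 161 and 186 CPM (2.38-fold). Tdgf1, the Nodal co-receptor Cripto, read 315 and 294 CPM against 492 and 486 CPM. The ligand Nodal itself read 86.9 and 92.3 CPM against 104 and 110.4 CPM, which is higher by a log2 fold change of 0.26 (SE 0.06, edgeR adjusted p = 0.00104). The signal transducers Smad2 and Smad4 and their partner Foxh1 were lower, by log2 fold changes of -0.29, -0.33 and -0.49. Feedback inhibitors thus made up the members with the largest differences, while ligand, transducers and Foxh1 differed by less than 1.5-fold.

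Among ERK pathway targets the immediate-early genes Fos, Fosb, Egr1 and Ier2 were higher in second 2i, and most called feedback genes were lower. Immediate-early genes encode transcription factors that cells switch on within minutes of a growth factor, serum or stress signal. Fos read 2.78 and 3.69 CPM in long 2i and 132 and 131 CPM in second 2i, a 40.2-fold difference (log2 fold change 5.33, SE 0.12, edgeR adjusted p = 5.62e-18). Its dimer family member Fosb read 0.236 and 0.422 CPM against 39.5 and 38.4 CPM, a 114-fold difference (edgeR adjusted p = 1.03e-14). Egr1, a zinc finger factor induced by ERK signalling, read 2.78 and 2.96 CPM against 116 and 109.8 CPM, a 39.2-fold difference (edgeR adjusted p = 6.92e-19). All 3 were higher in second 2i than in any other culture: Fos read 1.74 ± 0.119 CPM in first 2i, 5.04 ± 0.763 CPM in serum and 6.34 ± 0.874 CPM in the serum return. Egr1 read 0.43 ± 0.0122, 27.6 ± 1.32 and 28.1 ± 0.54 CPM in these cultures and Fosb 0.0945 ± 0.0648, 0.13 ± 0.184 and 0.213 ± 0.104 CPM. Against first 2i the log2 fold changes were 6.23, 8.02 and 8.58. These genes therefore stood apart from both earlier 2i cultures. Ier2, a smaller immediate-early gene, read 172 and 209 CPM against 294 and 340.1 CPM (1.66-fold, edgeR adjusted p = 0.00274). Jun, the usual partner of Fos, was lower in second 2i (log2 fold change -0.40, SE 0.14, edgeR adjusted p = 0.0176), a call lost with the DESeq2 Wald test (adjusted p = 0.111) or with any 1 of the 4 libraries left out (edgeR adjusted p = 0.0508 to 0.0909). Junb, a further member of the family, read 19.7 and 26.0 CPM against 16.2 and 19.9 CPM, with overlapping groups (edgeR adjusted p = 0.0832). It was called lower under 5 alternatives, at adjusted p from 0.000404 to 0.0480.

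The promoters of Fos and Fosb are shown because these genes had the largest increases of the list. The sequences are the 250 bases before the annotated start (RefSeq, GRCm38.p6, 5′ to 3′ on the strand of the gene) at chr12:85473640-85473889, plus strand, and chr7:19310046-19310295, minus strand, and capitals mark TGACG, the half-site of the cyclic AMP response element.
Fos: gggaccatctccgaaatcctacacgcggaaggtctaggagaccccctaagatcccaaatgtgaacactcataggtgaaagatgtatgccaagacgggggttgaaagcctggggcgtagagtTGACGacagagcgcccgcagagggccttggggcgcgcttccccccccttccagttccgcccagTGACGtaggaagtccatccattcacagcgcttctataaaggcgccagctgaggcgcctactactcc
Fosb: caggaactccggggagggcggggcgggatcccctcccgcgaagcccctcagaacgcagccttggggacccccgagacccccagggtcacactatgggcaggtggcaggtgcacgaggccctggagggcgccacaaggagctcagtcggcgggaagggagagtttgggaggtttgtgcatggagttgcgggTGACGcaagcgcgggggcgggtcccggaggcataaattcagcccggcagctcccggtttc
TGACG, searched on both strands after the sequences had been seen, occurred 2 times before Fos and 1 time before Fosb, all on the strand of the gene. At least 1 match was held by 17.8% of 32851 mouse promoter windows of the same length and at least 2 matches by 3.90%. The Fos window also held GCGTG. A match describes letters only and does not show that a factor binds there.

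Most called feedback inhibitors and PEA3 factors of the ERK pathway went the other way. Spry4, a Sprouty inhibitor of receptor signalling, read 20.3 and 19.06 CPM in long 2i and 9.10 and 8.38 CPM in second 2i (log2 fold change -1.17, SE 0.09, edgeR adjusted p = 7.6e-10). Etv4, a PEA3 family factor, read 135 and 141 CPM against 22.4 and 22.3 CPM and was 6.19-fold lower (edgeR adjusted p = 1.38e-17). Neither was as low as in first 2i, at 1.71 ± 0.289 CPM for Spry4 and 4.61 ± 0.165 CPM for Etv4, and the difference between second and first 2i was called for both (log2 fold changes 2.34 and 2.28, edgeR adjusted p = 1.24e-10 and 5.58e-13). The ERK phosphatase gene Dusp6 read 38.4 and 38.3 CPM against 19.9 and 18.7 CPM, and its second 2i level was not called different from first 2i (17.4 ± 2.47 CPM, log2 fold change 0.15, SE 0.09). Phlda1 (5.14 and 5.49 CPM against 1.53 and 2.21 CPM), Spry2 and Spred1 were also lower, by log2 fold changes of -1.50, -0.56 and -0.41. Egr2, a relative of Egr1 under the filter on low counts, had 2 and 1 counts in long 2i and 17 and 9 in second 2i and was not tested. The phosphatase gene Dusp5 was the exception among them, with 1.00 and 0.739 CPM against 1.69 and 1.79 CPM (2.01-fold higher, edgeR adjusted p = 0.0133), a call lost without library 2 of long 2i (adjusted p = 0.115) or library 2 of second 2i (0.0565). In the whole list of 24 genes, all in the files, 21 were tested, 5 were higher (23.8%) and 10 lower (47.6%), with a median of -0.17. Against first 2i 15 of the 21 were higher (71.4%) and 0 lower at an adjusted p under 0.05 in edgeR, with a median of 0.83. Of all tested genes 18.1% were higher and 19.6% lower in that comparison. In second 2i Spry4 and Etv4 thus lay between first and long 2i, and Fos, Fosb and Egr1 above both.

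**Figure D2:**
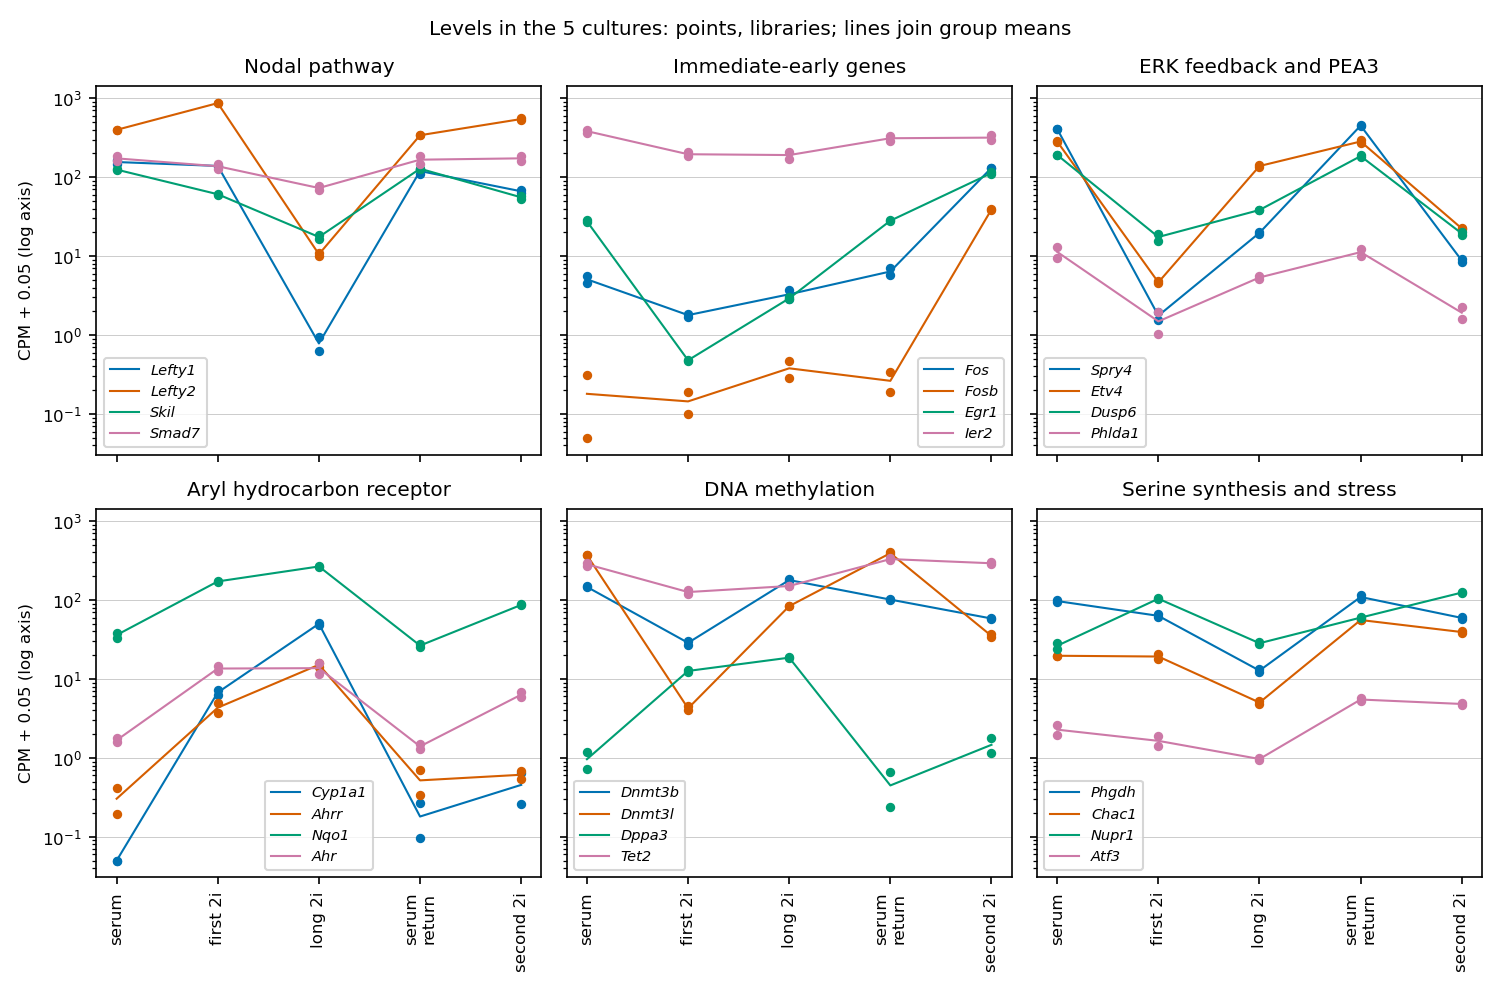
Levels of 24 genes in 6 groups across the 5 cultures, as CPM + 0.05 on a log axis, with points for libraries and lines joining group means. Lefty1 and Lefty2 dip in long 2i only, Fos, Fosb and Egr1 peak in second 2i, Spry4 and Etv4 lie in second 2i between first and long 2i, and Cyp1a1 and Ahrr are highest in long 2i.

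Genes of the aryl hydrocarbon receptor (AhR), a ligand-activated transcription factor that switches on xenobiotic metabolism, held the second largest named decrease. Cyp1a1, the cytochrome P450 that is its classical target, read 51.5 and 48.4 CPM in long 2i and 0.599 and 0.211 CPM in second 2i. It was 122-fold lower (log2 fold change -6.93, SE 0.22, edgeR adjusted p = 3.13e-15). Ahrr, the repressor that the receptor induces against itself, read 15.96 and 14.2 CPM against 0.49 and 0.633 CPM, a 26.5-fold difference (edgeR adjusted p = 6.55e-12). Both were also below first 2i, where Cyp1a1 read 6.70 ± 0.653 CPM and Ahrr 4.28 ± 0.89 CPM (log2 fold changes -4.04 and -2.92, edgeR adjusted p = 3.09e-09 and 5.04e-07). In the serum return they read 0.131 ± 0.119 and 0.469 ± 0.258 CPM, near the second 2i levels. The quinone reductase gene Nqo1 read 262 and 271 CPM against 88.1 and 85.2 CPM, and 172 ± 4.35 CPM in first 2i. The receptor gene Ahr itself read 11.5 and 15.8 CPM against 6.76 and 5.80 CPM and 13.5 ± 1.43 CPM in first 2i (second 2i lower than both, edgeR adjusted p = 3.99e-06 and 1.32e-05). Tiparp, another known target, went the other way, with 51.1 and 44.4 CPM against 88.5 and 91.6 CPM. Aldh1a3 and Aldh3a1 were called higher as well. The Aldh3a1 call (edgeR adjusted p = 0.0158) was lost with the DESeq2 Wald test (adjusted p = 0.0671). Of 12 listed genes 10 were tested, 4 were higher (40.0%) and 5 lower (50%), with a median of -0.66. With the DESeq2 Wald test 5 members were called, 1 higher and 4 lower, and without library 2 of second 2i edgeR also called 5.

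The promoters of Cyp1a1 and Ahrr are shown because these 2 targets had the largest decreases of the list. They are given as above, at chr9:57697363-57697612, plus strand, and chr13:74292332-74292581, minus strand, with capitals for GCGTG, the core that the receptor recognises.
Cyp1a1: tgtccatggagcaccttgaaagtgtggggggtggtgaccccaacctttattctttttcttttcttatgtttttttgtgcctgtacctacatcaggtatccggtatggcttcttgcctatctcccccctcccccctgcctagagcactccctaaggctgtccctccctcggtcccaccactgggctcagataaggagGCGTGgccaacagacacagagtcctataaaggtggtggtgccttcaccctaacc
Ahrr: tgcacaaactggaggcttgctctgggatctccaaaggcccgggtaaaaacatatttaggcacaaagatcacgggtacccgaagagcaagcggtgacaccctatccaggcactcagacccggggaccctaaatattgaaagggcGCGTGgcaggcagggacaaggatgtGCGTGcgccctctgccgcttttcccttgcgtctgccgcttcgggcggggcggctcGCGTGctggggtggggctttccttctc
GCGTG was searched on both strands and occurred 1 time before Cyp1a1, 54 to 50 bases upstream of the start, and 3 times before Ahrr. At least 1 match was held by 28.2% of the 32851 windows and at least 3 by 2.77%. CAGAC, the SMAD motif, was also in both windows, and none of CTTTGAT (TCF/LEF), ATCCACA (FOXH1), CACGTG (E-box), CCGGAAG (ETS) or AAGGTCA (ESRRB) was in either. The window does not reach the distal enhancer that is known upstream of Cyp1a1.

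Genes of the X-linked Xlr family, which encode nuclear proteins related to the synaptonemal complex protein SYCP3, were high in long 2i and had mean levels of at most 2.01 ± 0.295 CPM in second 2i. Xlr5b read 21.99 and 6.598 CPM in long 2i and no count in either second 2i library, so it was at least 178-fold lower against a floor of 3 counts over the group. The long 2i libraries differed more than 3-fold from each other, and the call (edgeR adjusted p = 0.0248) was lost in a fit of only the 4 libraries compared (adjusted p = 0.239), without library 1 of second 2i (0.0637) or without its library 2 (0.0658). Xlr5a read 6.92 and 6.23 CPM against 0 and 0.105 CPM, which is 235 counts against 2 (edgeR adjusted p = 1.97e-08, and 0.166 in the DESeq2 Wald test). Xlr4c read 11.1 and 13.8 CPM against 0.327 and 0.527 CPM and was 28.6-fold lower (edgeR adjusted p = 3.63e-11). Xlr3b, Xlr3c and Xlr4b, chosen after their values were seen, were 16.4-fold, 20.2-fold and 15.4-fold lower. In first 2i the 6 genes read between 0.0936 ± 0.132 and 2.33 ± 0.609 CPM, and none was called different between second and first 2i. The copies are near identical, so reads that fit several of them were not counted and the values of single copies are uncertain.

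That likeness is visible in the promoters of the pair with the largest decreases, at chrX:73117703-73117952, minus strand, and chrX:73148591-73148840, plus strand, shown for this reason. Capitals mark CCGGAAG, the ETS motif, where it overlaps its own reverse complement.
Xlr5a: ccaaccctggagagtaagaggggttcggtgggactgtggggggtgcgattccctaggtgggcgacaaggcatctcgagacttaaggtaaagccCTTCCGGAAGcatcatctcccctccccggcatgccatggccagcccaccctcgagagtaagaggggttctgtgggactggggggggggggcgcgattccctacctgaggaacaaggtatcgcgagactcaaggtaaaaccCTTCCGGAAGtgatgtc
Xlr5b: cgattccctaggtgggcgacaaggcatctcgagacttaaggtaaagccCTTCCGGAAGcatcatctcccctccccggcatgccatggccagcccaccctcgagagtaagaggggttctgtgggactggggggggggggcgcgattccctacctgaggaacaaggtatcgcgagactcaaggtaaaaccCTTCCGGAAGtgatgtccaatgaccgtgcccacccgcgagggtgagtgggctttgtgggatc
The windows share an unbroken run of 205 of their 250 bases. The motif matched at 2 places on each strand in both windows, which counts as 4 matches. At least 4 were held by 6 of the 32851 windows (0.0183%), and Xlr5a and Xlr5b are among these 6. Another X-linked gene, Efhc2, which encodes an EF-hand protein, read 74.1 and 74.0 CPM in long 2i and 1.798 and 1.48 CPM in second 2i (log2 fold change -5.50, SE 0.13, edgeR adjusted p = 1.38e-17). Its first 2i level, 1.48 ± 0.38 CPM, was not called different from second 2i (log2 fold change 0.14, SE 0.24).

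Other leading genes were nearer to first 2i than to long 2i. Rcn3, a calcium-binding protein of the endoplasmic reticulum, read 0.591 and 0.369 CPM against 11.7 and 10.3 CPM and 9.27 ± 0.985 CPM in first 2i. Adrbk2, a receptor kinase, read 1.18 and 1.74 CPM against 26.5 and 29.7 CPM and 15.4 ± 1.42 CPM in first 2i. Dkk3, a secreted protein of the Dickkopf family, read 0.65 and 0.475 CPM against 9.75 and 9.76 CPM and 15.8 ± 0.125 CPM in first 2i. Adrbk2 and Dkk3 still differed between second and first 2i (log2 fold changes 0.87 and -0.69), and Rcn3 was not called (edgeR adjusted p = 0.116). On the lower side, the kinase gene Cdkl4 (9.16 and 8.76 CPM against 0.599 and 0.158 CPM) and the anoctamin Ano3 (7.09 and 6.28 CPM against 0.545 and 0.105 CPM) were below first 2i, at 1.12 ± 0.0657 and 0.933 ± 0.195 CPM (edgeR adjusted p = 0.00932 and 0.0236).

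Core and naive pluripotency genes were mostly higher in second 2i, by modest factors. Of 25 listed genes 24 were in the files and tested, and 18 were higher (75.0%, against 28.1% of all genes) and 5 lower (20.8%). The median log2 fold change was 0.54, against -0.01 over all tested genes. Sox2, a core factor, read 382 and 404 CPM in long 2i and 618 and 612 CPM in second 2i (1.56-fold, edgeR adjusted p = 2.98e-10). The other core factors were higher as well: Pou5f1 read 890.3 and 948 CPM against 1311 and 1369.8 CPM, Nanog 907 and 866 CPM against 1295 and 1289.8 CPM. Esrrb, an orphan receptor that acts downstream of GSK3 inhibition, read 952 and 1002 CPM against 1253 and 1315 CPM (log2 fold change 0.39, SE 0.05). Among naive factors, Prdm14 read 50.7 and 51.6 CPM against 112 and 109.8 CPM (2.17-fold), Tbx3 236 and 243 CPM against 448 and 451 CPM (1.88-fold) and Nr5a2 127 and 119 CPM against 231 and 225 CPM (1.85-fold). Klf2 read 80.2 and 113 CPM against 208 and 259 CPM (2.42-fold, edgeR adjusted p = 0.0135), a call lost without library 1 of long 2i (adjusted p = 0.0681) or library 2 of second 2i (0.0667).

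The 5 members that were lower included genes of LIF signalling. Socs3, the feedback inhibitor that STAT3 induces, read 111 and 122 CPM against 70.4 and 80.8 CPM, the receptor chain Lifr 70.8 and 68.7 CPM against 51.3 and 42.4 CPM and Stat3 200.5 and 203 CPM against 145 and 148 CPM. The log2 fold changes were -0.63, -0.57 and -0.46. The partner receptor chain of Lifr, Il6st, was higher instead (log2 fold change 0.18, SE 0.06, edgeR adjusted p = 0.00893), a call lost without library 1 of second 2i (adjusted p = 0.0714) or library 2 of long 2i (0.0516). Dppa4, a chromatin factor, and Sall4, a zinc finger factor, were lower too, with log2 fold changes of -0.23 and -0.16. Those calls were lost without library 2 of second 2i (edgeR adjusted p = 0.209 and 0.0542) and also without library 1 of long 2i for Dppa4 (0.215) and without library 1 of second 2i (0.109) or library 2 of long 2i (0.130) for Sall4. Gbx2, a homeobox target of LIF and β-catenin, was the member not called. Against first 2i 11 of the 24 genes were higher (45.8%, against 18.1% of all genes) and 3 lower (12.5%, against 19.6%), with a median of 0.12. Pou5f1 and Nanog were among the higher (first 2i 1064 ± 16.01 and 1118 ± 1.84 CPM) and Sox2 among the lower (first 2i 793 ± 24.9 CPM, log2 fold change -0.37, edgeR adjusted p = 3.07e-06).

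Formative and primed epiblast genes, which mark the next step of development, went both ways, with 4 of 18 tested higher (22.2%), 5 lower (27.8%) and a median of -0.06 (19 listed). A pair of paralogs went opposite ways. Lin28a, a repressor of let-7 microRNAs, read 173 and 174 CPM in long 2i and 56.7 and 61.5 CPM in second 2i (2.93-fold lower, edgeR adjusted p = 1.01e-14). Its paralog Lin28b read 7.62 and 7.60 CPM against 19.6 and 17.2 CPM (2.41-fold higher, edgeR adjusted p = 6.08e-09). In first 2i Lin28a read 39.8 ± 0.318 CPM and Lin28b 24.3 ± 0.422 CPM. Otx2, a homeobox factor of the epiblast, read 23.3 and 22.6 CPM against 15.4 and 15.5 CPM, both below the 47.7 ± 0.939 CPM of first 2i. The ephrin receptor gene Epha2 was higher (log2 fold change 0.84).

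**Figure D3:**
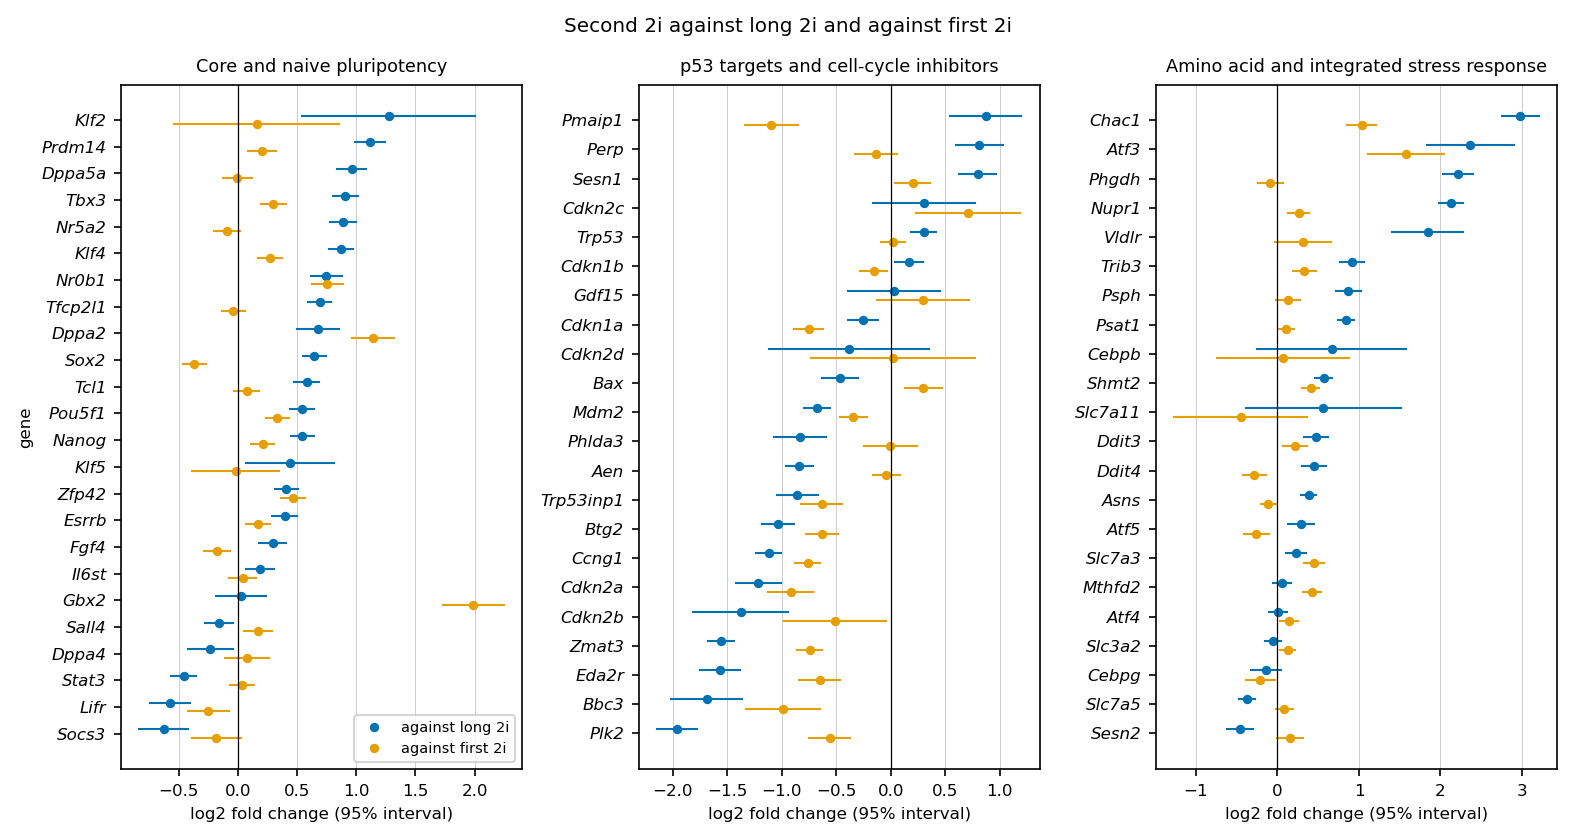
Log2 fold change of second 2i against long 2i (blue) and against first 2i (orange) with the 95% interval for the tested genes of 3 lists, 1 gene per line on the y axis. Most pluripotency and amino acid stress genes lie right of 0 against long 2i, most p53 targets left of 0, and for example Phgdh is at 2.22 against long 2i and -0.09 against first 2i. The comparisons share the second 2i libraries.

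Genes that add or remove DNA methylation differed in both directions. The de novo methyltransferase Dnmt3b read 174 and 184 CPM in long 2i and 58.6 and 58.0 CPM in second 2i (3.07-fold lower, edgeR adjusted p = 8.42e-15). Its cofactor Dnmt3l read 83.0 and 84.2 CPM against 33.5 and 36.6 CPM (2.38-fold lower, edgeR adjusted p = 1.45e-12). In second 2i both were above first 2i, at 28.6 ± 2.09 and 4.19 ± 0.353 CPM, by log2 fold changes of 1.02 and 3.06. The methyltransferase Dnmt3a was not called (log2 fold change -0.02, SE 0.09). Dppa3, which protects DNA from demethylation in the zygote, read 18.9 and 18.2 CPM against 1.09 and 1.74 CPM. With 12.6 ± 0.527 CPM in first 2i it was lower in second 2i than in either other 2i culture (log2 fold changes -3.70 and -3.14), and its serum levels were 0.913 ± 0.333 and 0.398 ± 0.3 CPM. The dioxygenase gene Tet2 read 148 and 153 CPM against 284 and 300.1 CPM, above first 2i as well (126 ± 8.55 CPM), and Tet1 was lower (log2 fold change -0.37). Uhrf1, which brings maintenance methylation to replicated DNA, and Zfp57, which guards imprints, were higher, by 1.34-fold and 1.62-fold. Of the 30 listed genes 29 were in the files and 28 tested, with 6 higher (21.4%), 10 lower (35.7%) and a median of -0.01.

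Germline genes, many of which are known to be held silent by promoter methylation, were divided. All 30 listed genes were tested, 9 were higher (30.0%) and 10 lower (33.3%). Fkbp6, a meiotic co-chaperone, read 93.1 and 92.7 CPM in long 2i and 13.0 and 12.8 CPM in second 2i (7.22-fold lower, edgeR adjusted p = 7.86e-16), and 9.26 ± 0.331 CPM in first 2i, from which second 2i was higher by a log2 fold change of 0.47. The RNA-binding protein gene Dazl read 81.4 and 70.4 CPM against 29.4 and 27.3 CPM and Taf7l, a germ cell TFIID subunit, 5.02 and 4.54 CPM against 0.327 and 0.58 CPM. Asz1, a piRNA pathway gene, fell from 99 counts in long 2i to 3 in second 2i. In the other direction, Brdt, a testis bromodomain protein, read 0.709 and 1.53 CPM against 14.4 and 14.7 CPM (12.7-fold, edgeR adjusted p = 1.74e-11) and 2.66 ± 0.532 CPM in first 2i. Syce1, of the synaptonemal complex, read 16.3 and 15.99 CPM against 64.6 and 63.2 CPM (3.96-fold) and Zcwpw1, a reader of meiotic histone marks, 3.61 and 3.17 CPM against 16.2 and 15.3 CPM (4.66-fold). Both were also above first 2i, by log2 fold changes of 0.56 and 0.64.

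Genes of the 2-cell-like state, a rare and transient state of stem cell cultures marked by the Zscan4 cluster, were detected in second 2i and nearly absent from long 2i. Zscan4d had 0 counts in long 2i and 138 in second 2i, 4.09 and 3.32 CPM, at least 44.3-fold higher against the floor of 3 counts over the group (edgeR adjusted p = 8.21e-09). Zscan4c, Zscan4a and Zscan4e also had no count in long 2i and were at least 11.5-fold, 10.9-fold and 7.07-fold higher. Usp17lb and Usp17le, ubiquitin-specific proteases of the same state, had 1 count each in long 2i and 109 and 94 in second 2i. First 2i read 0.261 ± 0.0938 CPM of Zscan4d and the serum return 2.31 ± 0.637 CPM, and second 2i was above first 2i (log2 fold change 3.79, edgeR adjusted p = 3.6e-07). Of 20 listed genes 16 were in the files and 10 were tested, and those passed the filter through the groups in which they are high, so their shared direction is a description only. The smallest difference was that of Gm8994 (1.96-fold), a gene detected in long 2i as well, and Usp17la was low there (0.118 and 0.106 CPM against 1.91 and 1.63 CPM). These are multicopy genes whose shared reads were not counted.

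Imprinted genes, expressed from 1 parental allele, were more often lower than higher in second 2i. Among maternally expressed genes 21 of 27 were tested, 2 were higher (9.5%) and 11 lower (52.4%), with a median of -0.28. The noncoding RNAs of the Dlk1-Dio3 domain differed in the same direction: Meg3 read 311 and 320.3 CPM in long 2i and 100.4 and 104 CPM in second 2i (3.09-fold lower, edgeR adjusted p = 7.64e-15). Rian read 243 and 216 CPM against 86.6 and 77.8 CPM and Mirg 25.8 and 25.3 CPM against 8.61 and 11.2 CPM. Meg3 and Rian were below first 2i as well (159 ± 5.05 and 118 ± 10.52 CPM, log2 fold changes -0.63 and -0.52). On the higher side stood Grb10, a growth-restricting adaptor, with 30.4 and 29.1 CPM against 79.1 and 79.5 CPM, and Gnas, a G-protein subunit, with 67.5 and 67.6 CPM against 156 and 159 CPM.

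Among paternally expressed genes 24 of 27 were tested, 5 were higher (20.8%) and 11 lower (45.8%), with a median of -0.37. Dio3, a thyroid hormone deiodinase at the other end of the Meg3 domain, had the largest increase, with 0.591 and 0.95 CPM in long 2i and 18.6 and 21.4 CPM in second 2i (25.5-fold higher, edgeR adjusted p = 4.09e-13). Its first 2i level was 12.9 ± 1.79 CPM, and both serum cultures were below 0.5 CPM. Mest read 82.0 and 87.9 CPM against 11.2 and 12.8 CPM (7.07-fold lower, edgeR adjusted p = 1.26e-15) and 9.02 ± 0.0541 CPM in first 2i. The retrotransposon-derived gene Peg10 read 976 and 912 CPM against 264 and 239 CPM and 239 ± 4.80 CPM in first 2i, from which second 2i was not called different (log2 fold change 0.07, SE 0.06). The zinc finger gene Peg3 read 42.7 and 46.7 CPM against 16.4 and 16.2 CPM and Sfmbt2, a Polycomb protein, 51.5 and 51.6 CPM against 21.8 and 18.9 CPM. Peg13, a noncoding RNA, had 109 counts in long 2i and 1 in second 2i. Allele of origin is not measured by these counts.

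Wnt/β-catenin targets went both ways in media with the same GSK3 inhibitor dose. Axin2, the feedback inhibitor whose transcription β-catenin drives, read 73.0 and 75.2 CPM in long 2i and 85.3 and 85.3 CPM in second 2i. The difference of 0.20 (log2, SE 0.07, edgeR adjusted p = 0.0129) was lost when library 1 of long 2i (adjusted p = 0.0629) or either library of second 2i (0.0539 and 0.0543) was left out. Sp5, another direct target, read 20.5 and 29.7 CPM against 21.3 and 27.6 CPM and was not called (edgeR adjusted p = 0.885, 95% interval of the log2 fold change -0.47 to 0.40). Larger differences were found for Nkx1-2, a homeobox gene of the caudal epiblast, at 2.13 and 3.01 CPM against 14.2 and 15.2 CPM (5.68-fold, edgeR adjusted p = 5.97e-10). Cdx1, a caudal homeobox gene, read 10.1 and 13.8 CPM against 41.2 and 51.3 CPM (3.85-fold) and only 5.99 ± 0.407 CPM in first 2i. Notum, a secreted enzyme that inactivates Wnt ligands, read 42.7 and 45.8 CPM against 92.1 and 102 CPM (2.19-fold). Tnfrsf19 was lower, at 23.6 and 25.2 CPM against 13.5 and 13.6 CPM. Of 23 listed genes 19 were tested, 6 were higher (31.6%) and 4 lower (21.1%), near the shares of all genes, and 6 were called in all by the DESeq2 Wald test, without library 1 of long 2i or without library 2 of second 2i.

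The BMP pathway was likewise divided, 6 higher and 6 lower of 15 tested among 20 listed (40.0% each). Id1, an inhibitor of differentiation that BMP and serum induce, read 19.7 and 22.6 CPM in long 2i and 4.03 and 5.01 CPM in second 2i (4.68-fold lower, edgeR adjusted p = 1.65e-12), against 2.69 ± 0.16 CPM in first 2i. Id4 went the other way, at 6.15 and 5.07 CPM against 12.3 and 11.97 CPM (2.17-fold higher). The ligand gene Bmp7 read 1.596 and 1.85 CPM against 7.14 and 7.49 CPM, with 7.69 ± 0.354 CPM in first 2i, and Bmp4 was higher by a log2 fold change of 0.28.

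Neural genes were divided, with called members in both directions. Nefm, the medium neurofilament subunit, read 131 and 123 CPM in long 2i and 17.9 and 17.2 CPM in second 2i (7.22-fold lower, edgeR adjusted p = 9.73e-16). The light subunit gene Nefl read 137 and 140.2 CPM against 62.5 and 68.5 CPM (2.11-fold lower), whereas the heavy subunit gene Nefh was higher (log2 fold change 0.58, SE 0.13, edgeR adjusted p = 0.000858). In second 2i Nefm and Nefl were above first 2i (4.05 ± 0.492 and 39.7 ± 0.152 CPM) by log2 fold changes of 2.11 and 0.72. Their serum return levels were below those of all 2i cultures, at 0.376 ± 0.126 and 2.15 ± 0.45 CPM. Neuronal β-tubulin, Tubb3, read 31.1 and 36.2 CPM against 10.52 and 10.55 CPM. Gad1, which makes the transmitter GABA, read 12 and 9.82 CPM against 0.49 and 0.475 CPM (22.3-fold lower, edgeR adjusted p = 9.98e-11). Its paralog Gad2 was opposite, with 2 counts in long 2i and 87 in second 2i, and 6.85 ± 0.296 CPM in first 2i. The transcription factors Pax6 (2.36 and 2.74 CPM against 0.109 and 0.105 CPM) and Sox11 (3.78 and 3.11 CPM against 0.327 and 0.58 CPM) were lower. The stathmins Stmn3 (5.91 and 4.96 CPM against 21.1 and 23.1 CPM) and Stmn2 (159.6 and 159.8 CPM against 216 and 197 CPM) were higher. In all 18 of 22 were tested, 7 were higher (38.9%) and 6 lower (33.3%), with a median of 0.02.

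Among other lineages, Hox genes were lower in 7 (41.2%) and higher in 2 (11.8%) of 17 tested out of 39 listed. Hoxc13 read 22.7 and 20.4 CPM in long 2i and 11.8 and 12.1 CPM in second 2i, and Hoxc4 10.9 and 10.1 CPM against 4.58 and 4.90 CPM, both lower. Endoderm genes were lower in 6 (35.3%) and higher in 4 (23.5%) of 17 tested out of 20. Dab2, an endocytic adaptor of primitive endoderm, read 8.27 and 8.76 CPM against 0.981 and 0.527 CPM (11.3-fold lower, edgeR adjusted p = 4.57e-10), and the transcription factor gene Gata4 was 2.08-fold lower. The laminin gene Lamc1 was 1.58-fold higher. Among trophectoderm genes 6 of 15 tested were higher (40.0%) and 4 lower (26.7%) out of 19 listed, and fewer were called with a library left out. Gata2 read 0.65 and 0.369 CPM against 5.83 and 5.22 CPM (10.9-fold higher, edgeR adjusted p = 1.56e-09). The 4 lower members were Krt19, Krt18 and Esx1 (edgeR adjusted p = 0.00178, 0.00803 and 0.0215) and Gata3. The Esx1 call was lost with the DESeq2 Wald test (adjusted p = 0.0952) and the Krt18 call without library 2 of long 2i. Of 10 tested primitive streak genes out of 18, 1 was higher (against 28.1% of all genes) and 3 lower (30.0%, against 28.4%). The higher one was Mixl1 (log2 fold change 1.25, edgeR adjusted p = 0.0245), a call lost with the DESeq2 Wald test (adjusted p = 0.0964). Among the lower was the VEGF receptor Kdr at 5.56 and 4.54 CPM against 2.23 and 2.53 CPM. By the DESeq2 Wald test, without library 2 of long 2i or without library 2 of second 2i 1 streak gene was called, and without library 1 of long 2i 2 were.

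Adhesion genes were divided, with E-cadherin and vimentin both lower. The E-cadherin gene Cdh1 read 531 and 544 CPM in long 2i and 344 and 337 CPM in second 2i and was below first 2i too (519 ± 18.8 CPM, log2 fold changes -0.66 and -0.61). Vimentin, Vim, an intermediate filament of mesenchymal cells, read 301 and 314 CPM against 168 and 177 CPM and 319.7 ± 8.62 CPM in first 2i. Fn1, fibronectin, read 1141 and 1224 CPM against 2439 and 2492 CPM (2.08-fold higher, edgeR adjusted p = 5.28e-12). All 17 listed genes of epithelial adhesion and mesenchymal regulation were tested, 6 were higher (35.3%) and 5 lower (29.4%), and 7 were called in all by the DESeq2 Wald test, without either library of long 2i or without library 2 of second 2i.

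Amino acid stress genes were mostly higher in second 2i. All 22 listed genes were tested, 14 were higher (63.6%) and 2 lower (9.1%), with a median of 0.52. Phgdh, which commits glucose carbon to serine synthesis, read 12.3 and 13.1 CPM in long 2i and 56.9 and 61.6 CPM in second 2i (4.65-fold, edgeR adjusted p = 3.76e-14). The next enzymes Psat1 and Psph were 1.79-fold and 1.83-fold higher, and none of the 3 was called different from first 2i (edgeR adjusted p = 0.368, 0.0696 and 0.164). The stress factor Atf3 read 0.887 and 0.95 CPM against 4.90 and 4.64 CPM and Chac1, a glutathione-degrading enzyme induced by ATF4, 5.20 and 4.75 CPM against 37.8 and 40.7 CPM (7.89-fold, edgeR adjusted p = 7.57e-15). Both were above first 2i (1.59 ± 0.326 and 19.19 ± 1.86 CPM, log2 fold changes 1.57 and 1.03). Nupr1 read 27.5 and 29.1 CPM against 124 and 125 CPM. Slc7a5, a leucine transporter, and Sesn2, a leucine sensor, were lower (log2 fold changes -0.38 and -0.46), and Atf4 itself was not called (log2 fold change 0.00, SE 0.05).

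Glycolysis genes were higher in 15 (60.0%) and lower in 6 (24.0%) of 25 tested, with a median of 0.49 (26 listed). The aldolase gene Aldoc read 6.09 and 6.91 CPM against 26.5 and 26.5 CPM (4.07-fold) and the lactate exporter Slc16a3 3.31 and 3.06 CPM against 13.2 and 11.8 CPM (3.92-fold). Ldha, which makes lactate, read 178 and 176 CPM against 343 and 352 CPM and Tpi1 143 and 156 CPM against 291 and 307 CPM (1.96-fold and 2.00-fold). Serum levels of Ldha were far above, at 1175 ± 0.401 and 1044 ± 6.46 CPM. Among the 6 lower members, the hexokinase gene Hk2 read 479 and 519 CPM against 273 and 286 CPM, the glucose transporter Slc2a1 229 and 232 CPM against 152 and 163 CPM and the regulatory enzyme Pfkfb3 15.5 and 15.5 CPM against 7.85 and 7.12 CPM. The phosphofructokinase genes Pfkl and Pfkp, of a later step, were higher (log2 fold changes 0.99 and 0.88), and neither the hexokinase gene Hk1 nor the transporter gene Slc2a3 was called (edgeR adjusted p = 0.994 and 0.0792). Hk2 and Slc2a1 were not called different from first 2i (edgeR adjusted p = 0.899 and 0.895).

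Cholesterol genes were lower in 12 (50%) and higher in 7 (29.2%) of 24 tested out of 26, with a median of -0.17. Dhcr7, a reductase of the last steps of synthesis, read 115 and 112 CPM against 63.4 and 65.4 CPM (1.76-fold lower, edgeR adjusted p = 3.01e-10) and 82.7 ± 2.72 CPM in first 2i.

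Targets of p53 and cell-cycle inhibitors were lower in 14 (63.6%) and higher in 5 (22.7%) of 22 tested out of 23, with a median of -0.75. Plk2, a stress-induced kinase, read 100.4 and 101 CPM in long 2i and 26.4 and 25.2 CPM in second 2i (3.90-fold lower, edgeR adjusted p = 1.67e-13). The RNA-binding protein Zmat3 read 195 and 195 CPM against 68.2 and 64.2 CPM and Ccng1, cyclin G1, 492 and 449.9 CPM against 217 and 216 CPM. The pro-apoptotic gene Bbc3, which encodes PUMA, read 19.6 and 24.0 CPM against 5.78 and 7.75 CPM and the receptor gene Eda2r 98.1 and 90.1 CPM against 35.1 and 28.5 CPM. Cdkn2a, which encodes p16 and ARF, read 35.6 and 37.5 CPM against 14.9 and 16.6 CPM. All 6 were also below first 2i, by log2 fold changes of -0.56 for Plk2 to -0.99 for Bbc3 (edgeR adjusted p = 6.46e-05 and 9.41e-05). Trp53 itself was higher (310.3 and 339.8 CPM against 388 and 412 CPM), as were the stress-response gene Sesn1 and Pmaip1, which encodes NOXA (log2 fold changes 0.80 and 0.87). Against first 2i 12 of the 22 were lower (54.5%, against 19.6% of all genes) and 3 higher (13.6%, against 18.1%), with a median of -0.43. The list mixes p53 targets with CDK inhibitors and does not measure p53 activity.

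Targets of SRF and YAP, which report actin tension and cell contact, were lower in 9 (50%) and higher in 2 (11.1%) of 18 tested out of 22. Cyr61 and Ctgf, secreted matrix proteins, read 41.4 and 40.9 and 61.6 and 65.9 CPM in long 2i and 28.4 and 26.9 and 49.7 and 48.8 CPM in second 2i, and first 2i was lower still (8.56 ± 0.398 and 21.8 ± 0.258 CPM). The actin-binding calponin Cnn2 read 29.6 and 32.7 CPM against 8.34 and 10.4 CPM and was below first 2i (14.0 ± 0.431 CPM, edgeR adjusted p = 0.000904). The 2 higher members were Tpm2 and Actn1, with log2 fold changes of 1.76 and 0.65 (edgeR adjusted p = 6.88e-06 and 2.18e-09).

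**Figure D4:**
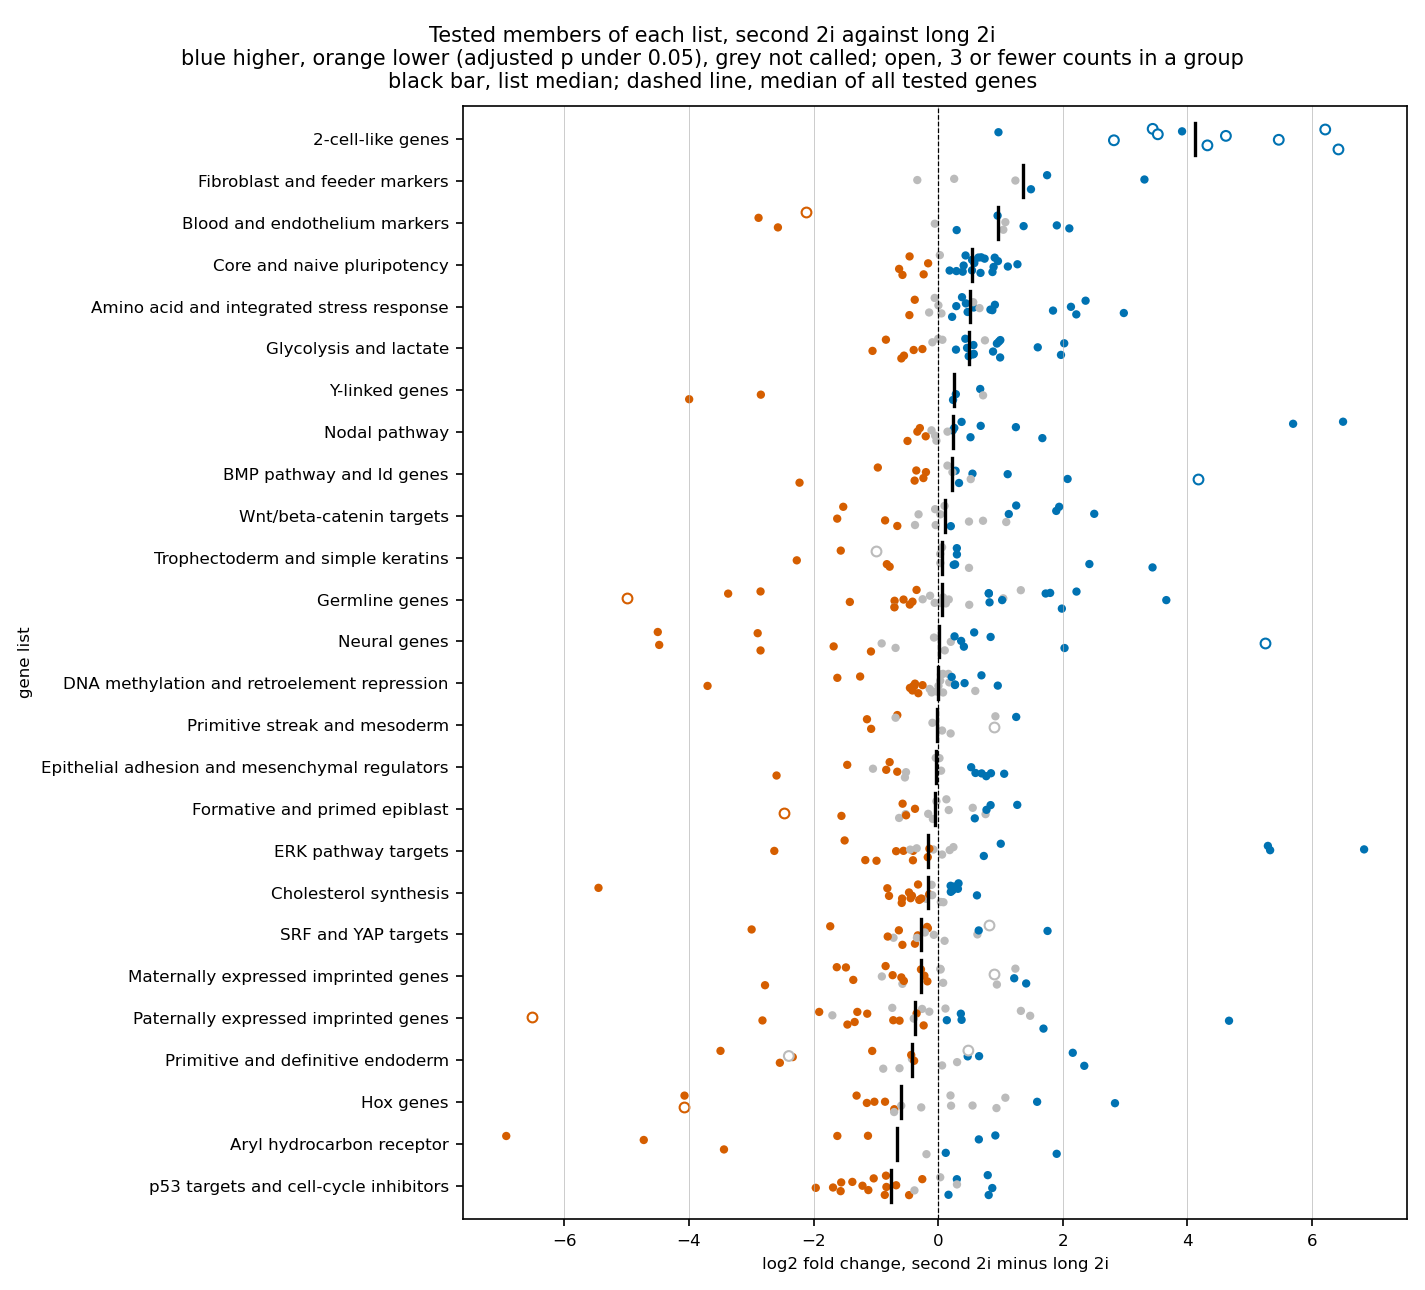
Log2 fold change of second 2i against long 2i for each tested member of 26 lists, with lists on the y axis ordered by their median (black bar) and the median of all tested genes as a dashed line. Blue points are higher, orange lower and grey not called at an adjusted p under 0.05, and open points have 3 or fewer counts in a group (at their bound where a group had none). The highest medians are those of 2-cell-like genes (4.12 with bounds), fibroblast and feeder markers (1.365) and blood and endothelium markers (0.954). Pluripotency, amino acid stress and glycolysis have medians of 0.54, 0.52 and 0.49, and p53 targets of -0.75.

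Markers of other cell types had summed levels far below those of the stem cell markers in every library compared. Among fibroblast and feeder markers 6 of 12 were tested, 3 were higher and 0 lower in second 2i (2 or 3 called with a library left out), and Pdgfrb, a mesenchymal receptor, read 5.20 and 4.86 CPM in long 2i and 13.5 and 14.7 CPM in second 2i. Of blood and endothelium markers 11 of 14 were tested, 5 were higher (45.5%) and 3 lower (27.3%), with a median log2 fold change of 0.95. Cd34, a sialomucin of blood progenitors and endothelium, was higher at 0.355 and 0.264 CPM against 1.63 and 1.05 CPM. Tek, an angiopoietin receptor, was lower at 6.92 and 6.23 CPM against 0.763 and 1.42 CPM, as was Esam, an endothelial adhesion molecule, at 4.85 and 5.49 CPM against 0.545 and 0.844 CPM. Their part in the differences described above was not tested.

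Genes of the Y chromosome differed in both directions. Kdm5d, a histone demethylase gene, read 13.4 and 13.4 CPM in long 2i and 0.599 and 1.05 CPM in second 2i (15.98-fold lower, edgeR adjusted p = 3.89e-11), with 2.68 ± 0.346 CPM in first 2i. The deubiquitinase gene Usp9y read 10.05 and 10.1 CPM against 1.47 and 1.32 CPM (7.19-fold lower, edgeR adjusted p = 7.15e-09). The translation factor gene Eif2s3y was higher, at 104 and 91.6 CPM against 163 and 149 CPM (1.597-fold, edgeR adjusted p = 4.18e-05). Of 8 listed genes 6 were tested, 3 were higher (50%) and 2 lower (33.3%), and 3 to 5 were called with a library left out (3 without library 1 of second 2i or library 2 of long 2i).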

How the data were processed

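RNA-seq gene counts of 10 libraries, 5 culture groups of 2, were used as deposited. Per the submitters' processing notes the authors used CASAVA 1.8.2, TopHat2 2.0.4, HTSeq 0.5.4p5, DESeq2 (version not given) and the mm9 build; settings and strandedness: not given in the sources used here. Each deposited file held raw counts for 24015 genes, and its last 5 summary rows were dropped. Gene counts made up 51.2% to 54.8% of all records, and reads without a unique position 33.4% to 36.5%. Those reads were not counted for any gene, which lowers multicopy genes.

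Genes were kept with edgeR's filter (minimum count 10, minimum total 15; 14220 genes), normalised by TMM and fitted by group over all 10 libraries with edgeR 4.0.16 (robust quasi-likelihood, 5 residual degrees of freedom; R 4.3.3, limma 3.58.1), with Benjamini-Hochberg adjustment over all tested genes and an adjusted p under 0.05 as a call. The fit was tested on simulated data. A group without counts was set to a floor of 3 counts over its 2 libraries, which gives bounds instead of fold changes. Fold changes were not given where a group had 1 to 3 counts.

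Alternatives were RLE size factors, no filter, the DESeq2 1.42.0 Wald test, only the 4 libraries compared, the series of the sample titles as a block, and each library left out. The comparison and the gene lists were chosen with earlier results of these data known. Named genes were the 10 with the largest change in each direction (called, group mean of 5 CPM or more on the higher side, no overlap between the groups, leaving out model names and ribosomal protein and histone genes), up to 5 called members of each list with the largest changes, and a fixed set (Pou5f1, Sox2, Nanog, Esrrb, Axin2, Sp5, Lefty1, Lefty2, Nodal, Dnmt3a, Dnmt3b, Dnmt3l, Nefl, Nefm, Cyp1a1, Spry4, Etv4, Id1). Some genes that the rule names are not reported here. Other list members in the text were chosen after their values were seen. Gene names were those of the files. Promoter windows were matched by symbol in RefSeq (GRCm38.p6), for 141 of 210 named genes, and no coordinate was converted from mm9.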

Additional observations from a re-analysis of the deposited data

How the results depend on the processing

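Between second and long 2i 8024 genes were called, and 6799 to 6995 with a library left out; of those of at least 2-fold (2062) it was 1880 to 1973. Between second and first 2i 5357 genes were called and 3556 to 4218 with a library left out, the lowest without library 2 of second 2i. With RLE size factors, no filter, the DESeq2 Wald test or only the 4 libraries compared, these counts stayed within 1.5 times their value. Same-numbered libraries of the title series correlated at 0.0994 to 0.168 in their deviations from the group means, above 0.1 in 9 of 10 pairs of groups (0.110 between long and second 2i) but not between serum and second 2i (0.0994). The labels do not say what a series shares, so the series were not taken as pairs. With the series as a replicate block 8983 genes were called between second and long 2i, 2110 by at least 2-fold, and 6933 between second and first 2i.

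Of the lists, 6 had counts of called members that moved by more than 1.5 times. The DESeq2 Wald test called 6 of the Wnt list (10 in the fit reported), 1 streak gene (4), 7 adhesion genes (11) and 5 of the AhR list (9). With a library left out the Wnt list had 6 to 7 called members, streak genes 1 to 3, trophectoderm genes 6 to 8 (10), adhesion genes 7 to 9, the AhR list 5 to 8 and Y-linked genes 3 to 5 (5). Of 210 genes named by the rule or with values in the text 173 kept their call under every alternative run, 35 lost it or turned direction under at least 1, and 2 gained one: Junb under 5 (adjusted p = 0.000404 with the replicate block) and Slc2a3 with the block (0.00406). The 4 genes that turned were not called. With a library left out Sp5 had log2 fold changes of -0.27 to 0.26 (0.14 without library 1 of second 2i, 0.26 without library 2 of long 2i), Dnmt3a of -0.076 to 0.033 (0.031 and 0.033 without the same libraries), Hk1 of -0.035 to 0.051 (-0.035 without library 1 of long 2i, -0.025 without library 2 of second 2i) and Atf4 of -0.019 to 0.040 (-0.013 and -0.019). The cause was not tested. Genes with few counts set the limit of depth, since 3 counts over a group correspond to 0.0804 CPM in second 2i and 0.0837 CPM in long 2i.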
